A study of Mus musculus with 50 samples.

Results

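The 9 genes described here are the transforming growth factor beta (TGF-beta) ligands Tgfb1, Tgfb2 and Tgfb3, the receptors Tgfbr1, Tgfbr2 and Tgfbr3, the response genes Tgfbi and Skil, and the activin subunit gene Inhba. They were found by gene symbol among the 37701 genes of the expression table, 1 entry for each symbol, and all 9 were among the 16733 genes that were expressed at a mean of at least 0.5 RPKM (reads divided by gene length in kilobases and by library size) and were therefore tested. Expression was measured by RNA sequencing of 50 mammary gland tumors of female p53R270H/+WAPCre mice, 10 tumors in each of 5 treatment groups. Mice were 8 weeks old at the start of the experiment and received subcutaneous injections of vehicle, insulin, glargine (a long-acting insulin analogue), X10 (an insulin analogue) or IGF1 (insulin-like growth factor 1) every other day until a tumor developed. Each tumor was collected once it had grown to 1 cm3, 24 h after its mouse had last been injected. All groups, vehicle included, carry 1 mutant p53 allele, which is switched on by a Cre recombinase under the WAP promoter, a promoter of the milk-producing mammary epithelium, so the model mutates cells in which this promoter has been active. The authors chose tumors of the epithelial to mesenchymal transition (EMT) type whose latency was close to the median of their group, so the 10 tumors of a group are not a random draw. The labels title the vehicle tumors untreated, and single tumors are named below by these titles. The title IFG1_132 was taken as an IGF1 tumor and is written IGF1_132. The study set X10 and IGF1, which strongly activate the IGF1 receptor, against the other groups, and the comparisons below follow that question.

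TGF-beta ligands are secreted in a latent complex and, once released, bring together the receptors Tgfbr2 and Tgfbr1, which phosphorylate Smad2 and Smad3. These enter the nucleus with Smad4 and switch genes on or off. Betaglycan, encoded by Tgfbr3, is a co-receptor that presents ligand and is best known for binding the Tgfb2 product. In mammary epithelium the pathway restrains growth, and in carcinoma cells it is a well known inducer of EMT and of matrix production. Activin A, a dimer of the Inhba product, signals through receptors of its own to the same Smad2 and Smad3.

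On GRCm38 the ligand genes lie at chr7:25687002-25705077 (Tgfb1), chr1:186622792-186705989 (Tgfb2) and chr12:86056745-86079041 (Tgfb3), and the receptor genes at chr4:47353222-47414931 (Tgfbr1), chr9:116084293-116175360 (Tgfbr2) and chr5:107106570-107289629 (Tgfbr3). The others lie at chr13:56609523-56639562 (Tgfbi), chr3:31095058-31122577 (Skil) and chr13:16011851-16031621 (Inhba). Tgfb2, Tgfb3 and Inhba are overlapped by annotated genes on the other strand and Tgfbr3 by annotated genes on both strands, so their counts are less certain, that of Tgfbr3 also where strand was kept.

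Promoters are shown for 3 members that differ most in level and spread, the abundant and even Tgfb1, the low and uneven Tgfb2, and Inhba, which varied most between tumors. Starts of 6 of the 9 members were found in the RefSeq table used (build GRCm38.p6). Each line gives the 250 bases before the start, with every GC box (GGGCGG) and TATA box (TATAAA) on either strand in capitals. For Tgfb1 the bases are chr7:25686752-25687001, plus strand, for Tgfb2 chr1:186705990-186706239, minus strand and for Inhba chr13:16011601-16011850, plus strand.
Tgfb1: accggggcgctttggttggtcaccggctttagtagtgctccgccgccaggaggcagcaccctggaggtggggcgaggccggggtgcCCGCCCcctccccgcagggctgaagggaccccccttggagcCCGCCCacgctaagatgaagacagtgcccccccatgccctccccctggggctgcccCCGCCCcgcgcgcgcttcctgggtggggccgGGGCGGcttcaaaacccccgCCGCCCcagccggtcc
Tgfb2: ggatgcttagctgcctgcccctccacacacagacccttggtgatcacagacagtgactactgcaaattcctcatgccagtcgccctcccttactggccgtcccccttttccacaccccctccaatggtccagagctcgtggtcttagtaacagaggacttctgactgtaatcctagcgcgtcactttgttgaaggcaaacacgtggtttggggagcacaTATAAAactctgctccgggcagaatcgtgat
Inhba: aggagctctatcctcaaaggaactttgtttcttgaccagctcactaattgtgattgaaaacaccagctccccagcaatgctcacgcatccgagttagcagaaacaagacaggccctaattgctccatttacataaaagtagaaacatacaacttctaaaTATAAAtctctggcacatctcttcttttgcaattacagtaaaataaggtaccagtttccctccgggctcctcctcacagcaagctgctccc

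The Tgfb1 window held 5 GC boxes and no TATA box, whereas Tgfb2 and Inhba each held 1 TATA box and no GC box. The TATA box began 31 bases before the start in Tgfb2 and 91 bases before it in Inhba. Among the 32851 starts of that table, 32.7% held a GC box and 12.4% a TATA box in a window of this length. Of the other members, Tgfbr1 had 2 GC boxes at its first start, Tgfbi had 1, and Tgfbr2 had neither motif. The short Smad box CAGAC, which is present in 42.2% of all starts, occurred 2 times each in Tgfb2 and Tgfbi, 1 time in Tgfbr2 and at the second of the Tgfbr1 starts, and at neither strand in Tgfb1, in Inhba or at the first Tgfbr1 start. These matches describe letters only. Across the tested genes, the standard deviation between tumors on the log2 scale had a median of 0.47 for 877 genes with a TATA box and of 0.39 for 9511 genes without.

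Library sizes recovered from the steps of the RPKM values were between 26.6 and 51.9 M reads, and the 9 members had between 208 and 65182 reads in a tumor, so counting error was small beside the spread between tumors. All 37 markers of the 6 cell types searched were measured. The summed RPKM of the 7 fibroblast and mesenchyme markers was between 2618 and 31472, that of the 7 leukocyte markers between 181 and 755, and that of the 7 epithelial markers between 11.8 and 5924. In 6 tumors, 4 of the vehicle group (Untreated_161, Untreated_174, Untreated_182 and Untreated_195) and 2 of the X10 group (X10_105 and X10_111), the epithelial markers summed to between 1272 and 5924 RPKM, while the other 44 tumors reached at most 725. Some values below are also given without these 6 tumors, a choice made after seeing the data. The paper also describes a cluster of 6 tumors with high epithelial genes and many E-cadherin-positive cells. Vehicle tumors were among them and IGF1 tumors were not. Its text does not name them, so whether they are the same tumors was not checked. The adipocyte markers summed to 0.193 to 81.6 RPKM and the skeletal muscle markers to 2.77 to 4251. In such bulk samples, fewer cells of a type and less RNA per cell cannot be told apart.

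All 9 genes were expressed in every tumor, but over very different ranges. Tgfb1, the best known of the ligands, had the highest deposited level, with a mean of 198 RPKM ± 49.8 (SD, n = 50) and only a 3.13-fold range between the lowest and the highest tumor. Tgfbi, which encodes a secreted matrix protein, followed with 126 ± 42.1 RPKM, and Tgfbr2, the receptor that binds ligand first, with 102 ± 47.5. Levels of Tgfbr1 (60.9 ± 24.4 RPKM), Inhba (41.3 ± 38.9), Tgfbr3 (31.3 ± 13.6), Skil (29.5 ± 7.64) and Tgfb3 (22.7 ± 11.9) were lower, and Tgfb2 was the lowest at 4.42 ± 3.98. Inhba, Tgfbr3 and Skil could not be ranked: Inhba exceeded Tgfbr3 in 24 of 50 tumors (adjusted p = 0.648, permutation test of the paired log2 ratios) and Tgfbr3 exceeded Skil in 24 of 50 (adjusted p = 0.969). The 6 other neighbours in this order differed (largest adjusted p = 0.00307).

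The order depends on the length by which the authors divided. For Tgfb1 this was 700 bases, the median of its 5 annotated transcripts, whereas its longest transcript has 2573 bases. Divided by the longest transcript of each gene, Tgfbi was highest with a mean of 112.7 RPKM, followed by Tgfbr2 with 60.1 and Tgfb1 with 53.8, and these latter genes could not be separated, Tgfbr2 being higher in 28 of 50 tumors (adjusted p = 0.587). Tgfb2 was again the lowest at 4.09 RPKM. The length behind Tgfb2 could be read from its values as either 4725 or 5275 bases and that of Tgfbr2 as 4747.5 or 5252.5, and the larger ones would give means of 4.56 and 66.5 RPKM, with which the order of Tgfbr2 and Tgfb1 was not tested. Differences between tumors within a gene do not depend on the length.

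The members differed widely in their spread between tumors. The standard deviation of Inhba on the log2(RPKM + 0.5) scale was 1.06, larger than in 93.5% of the tested genes, and its levels ran from 3.84 RPKM in glargine_69 to 188 RPKM in Untreated_187. Tgfb2 came next with 0.89 and a 20.2-fold range. For Tgfb1 it was 0.36, lower than the median of 0.42 over all tested genes. Among the 545 genes of like level it was ordinary, larger than in 50.1% of them. Between 5.41% (Tgfbi) and 21.2% (Tgfb3) of a member's variance lay between the 5 groups, where the median over all tested genes was 9.29%.

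**Figure D1:**
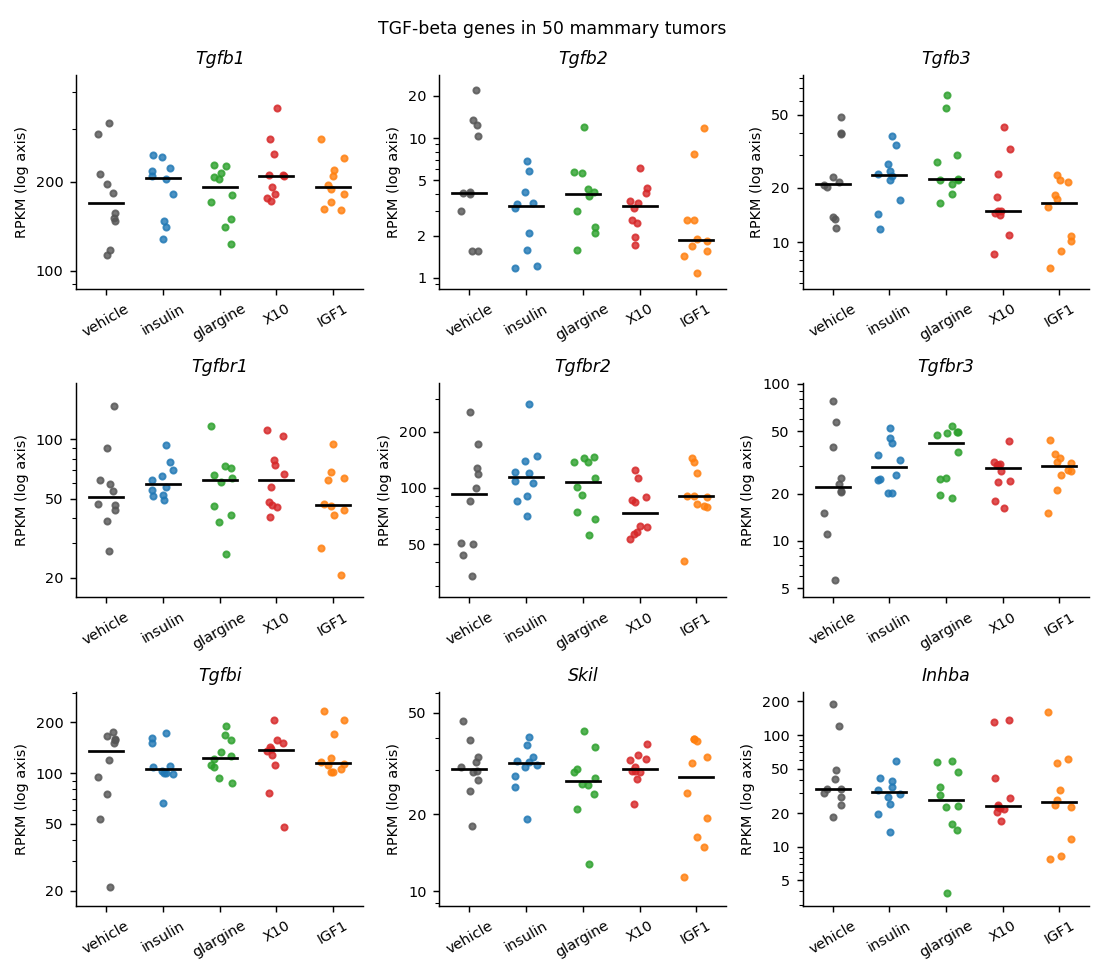
Expression of the 9 genes in each of 50 tumors, with treatment on the horizontal axis and RPKM on a log axis; each point is 1 tumor and each bar the median of a group. The groups overlapped for every gene, Inhba ran from 3.84 to 188 RPKM, and Tgfb3 was lowest in the X10 and IGF1 groups by median (14.9 and 16.5 RPKM).

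Among the ligands, Tgfb3 had the smallest p for a difference between treatments. It was at 12.0 to 48.5 RPKM in vehicle tumors (median 21.1), 11.9 to 38.1 with insulin (median 23.5), 16.4 to 64.1 with glargine (median 22.2), 8.63 to 42.9 with X10 (median 14.9) and 7.23 to 23.5 with IGF1 (median 16.5). The 5 ranges overlapped, but 14 of the 20 X10 and IGF1 tumors lay below the median of all tumors, 21.1 RPKM, against 11 of the 30 others. Against the mean of the other 3 groups, X10 and IGF1 together differed by -0.57 on the log2 scale (SE 0.18, 95% interval -0.93 to -0.22, unadjusted p = 0.00204). The Benjamini-Hochberg adjusted p over all tested genes in limma was 0.148, so the difference did not pass the threshold of 0.05. It stayed between -0.59 and -0.53 over 9 alternatives, with adjusted p from 0.143 to 0.246. Leaving out each tumor in turn gave adjusted p from 0.0551 to 0.274. Without the 6 tumors of high epithelial markers, a choice made after seeing the data, the difference was -0.81 (SE 0.17) and passed, with an adjusted p of 0.0273 in a fit that called 0.604% of all genes. X10 against vehicle moved from -0.37 (SE 0.27, adjusted p = 0.633) to -0.96 without them (SE 0.30, unadjusted p = 0.00257, adjusted p = 0.312), and IGF1 against vehicle from -0.63 (SE 0.27, adjusted p = 0.479) to -0.95 (SE 0.29, unadjusted p = 0.00183, adjusted p = 0.407). The locus of Tgfb3 (chr12:86056745-86079041, minus strand, GRCm38) is overlapped by Ttll5 on the plus strand (chr12:85824659-86061893). HTSeq-Count assigns reads by strand under its default options, so reads of the overlap may be counted for either gene if the library kit did not keep strand, and Ttll5 correlated with Tgfb3 (r = 0.673, rho = 0.639, permutation p = 1e-05 for both, the smallest these permutations can give).

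Tgfb2 had its highest values in vehicle tumors, from 1.55 to 21.9 RPKM with a median of 4.07, and its lowest median with IGF1, 1.86 RPKM within a range from 1.08 to 11.7. Insulin tumors lay between 1.17 and 6.89 RPKM, glargine tumors between 1.58 and 12.0 and X10 tumors between 1.73 and 6.13. All groups overlapped, and the vehicle mean of 7.62 RPKM ± 6.67 lay far above the vehicle median, with the highest value in Untreated_194. IGF1 against vehicle gave a difference of -0.96 (SE 0.37, unadjusted p = 0.0129, adjusted p = 0.426) and insulin against vehicle -0.84 (SE 0.37, unadjusted p = 0.0300, adjusted p = 0.403), neither of which passed. X10 against vehicle gave -0.71 (SE 0.37, unadjusted p = 0.0623, adjusted p = 0.480). IGF1 gave -1.22 without the 6 tumors of high epithelial markers (adjusted p = 0.469) and X10 -1.12 (adjusted p = 0.433). The mean level of the genes of chromosome 1, where Tgfb2 lies, was -0.11 ± 0.11 on the log2 scale in IGF1 tumors, 0.08 ± 0.09 in X10 tumors and 0.02 ± 0.11 in vehicle tumors (SD, n = 10 each). With this level as a covariate added after seeing the data, IGF1 gave -0.48 (SE 0.37, unadjusted p = 0.202, adjusted p = 0.673), X10 -0.95 (SE 0.35, unadjusted p = 0.00863, adjusted p = 0.460) and insulin -0.77 (SE 0.34, unadjusted p = 0.0276, adjusted p = 0.323). None passed in either fit.

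No difference in Tgfb1 passed either. Its group medians were 169 RPKM in vehicle, 206 with insulin, 192 with glargine, 209.7 with X10 and 192 with IGF1, and ranges such as 112.9 to 316 in vehicle and 172 to 354 with X10 overlapped. X10 against vehicle gave 0.29 (95% interval -0.03 to 0.60, adjusted p = 0.502), and 0.40 without the 6 tumors (adjusted p = 0.436).

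RPKM is per length, and the 3 ligands were set side by side within a tumor, where their mix differed by treatment. The lengths were unlike, however. Tgfb1 was divided by 700 bases, far below its longest transcript of 2573, Tgfb3 by 3384 and Tgfb2 by 4725 or 5275. The size of a share therefore depends on the length used. The share was adjusted over 5 comparisons only, whereas each ligand was adjusted over all tested genes, so the outcomes of these tests cannot be set against each other. Tgfb1 made up 84.0% ± 7.76 of the summed RPKM of the 3 ligands in vehicle tumors (SD, n = 10), 87.3% ± 5.02 with insulin, 84.5% ± 6.03 with glargine, 90.9% ± 3.00 with X10 and 91.2% ± 4.27 with IGF1. The groups overlapped, and the lowest share was 84.9% in X10 tumors but 71.6% in vehicle tumors. Of the 20 X10 and IGF1 tumors, 5 lay below the median of all tumors, 88.9%, against 20 of the 30 others. The difference between these sets was 5.77 percentage points (permutation p = 0.00052, adjusted over the 5 comparisons 0.0026). X10 against vehicle differed by 6.89 points (adjusted p = 0.0336) and IGF1 by 7.16 points (adjusted p = 0.0336), while insulin differed by 3.26 (adjusted p = 0.345) and glargine by 0.516 (adjusted p = 0.869). All 4 comparisons with vehicle share the same 10 control tumors. The X10 and IGF1 comparisons with vehicle both lost their call without Untreated_162, Untreated_186, Untreated_194 or Untreated_197 (adjusted p from 0.0540 to 0.0615), and that of IGF1 also without IGF1_128, IGF1_132, IGF1_135, IGF1_158 or IGF1_160 (adjusted p from 0.0545 to 0.0599). The difference between X10 and IGF1 and the other groups passed without each of the 50 tumors in turn (5.30 to 6.20 points). Without the 6 tumors of high epithelial markers the difference between X10 and IGF1 and the other groups was 7.01 points (adjusted p = 0.00015). The mean of the remaining 6 vehicle tumors was 80.0%, from which X10 differed by 12.0 points (adjusted p = 0.0008), IGF1 by 11.1 (adjusted p = 0.00207), insulin by 7.24 (adjusted p = 0.033) and glargine by 4.49 (adjusted p = 0.179), so that insulin passed as well. With the longest transcript as the length for each ligand the shares were lower, 74.3% for X10 and IGF1 and 62.8% for the others, and the difference of 11.5 points passed too (adjusted p = 0.00215).

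**Figure D2:**
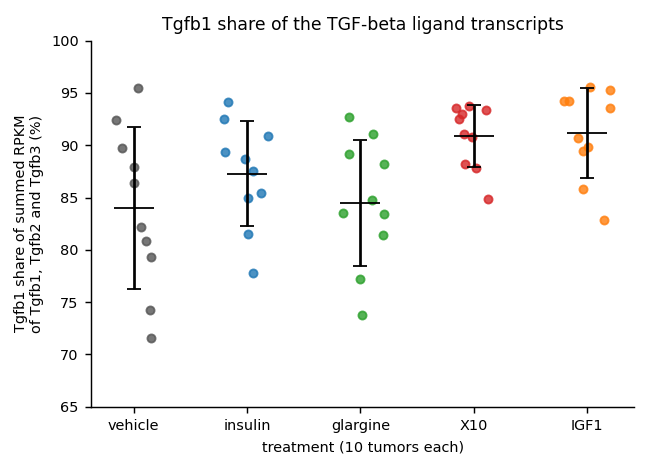
Share of Tgfb1 in the summed RPKM of Tgfb1, Tgfb2 and Tgfb3, in percent, for the 10 tumors of each treatment; points are tumors, the wide dash is the mean and the bars are 1 SD. The vertical axis starts at 65%, and the size of a share depends on the gene lengths used. X10 and IGF1 tumors had means of 90.9% and 91.2%, against 84.0% in vehicle tumors.

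No call was made for any receptor. Tgfbr2 lay between 33.7 and 255 RPKM in vehicle tumors (median 92.3), 70.8 and 279.7 with insulin (median 114), 55.7 and 146 with glargine (median 107.45), and 40.9 and 144.5 with IGF1 (median 90.1). X10 tumors had at least 53.4 RPKM and a median of 73.5, and none of them exceeded the highest glargine tumor. The X10 tumors were low as a group, 8 of 10 being below the median of all tumors, yet all lay within the vehicle range. X10 against insulin gave -0.64 (SE 0.27, unadjusted p = 0.0208, adjusted p = 0.324). The direction of the Tgfbr2 difference turned with the tumors included, since IGF1 against vehicle was 0.08 with all tumors and -0.55 without the 6 of high epithelial markers (adjusted p = 0.586). X10 against vehicle was -0.74 without them (unadjusted p = 0.00890, adjusted p = 0.412), where 10 other alternatives gave -0.31 to -0.06, and X10 and IGF1 against the other 3 groups was -0.46 (unadjusted p = 0.00524, adjusted p = 0.148).

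Tgfbr3, the co-receptor, had medians of 21.9 RPKM in vehicle, 29.7 with insulin, 41.9 with glargine, 29.2 with X10 and 29.8 with IGF1. Vehicle tumors covered the whole range, from 5.67 RPKM in Untreated_174 to 77.9 in Untreated_189, so every other group lay inside it. The difference of glargine from vehicle was 0.58 (95% interval 0.01 to 1.14, unadjusted p = 0.0457, adjusted p = 0.789). It was 0.20 without the 6 tumors of high epithelial markers (SE 0.26, unadjusted p = 0.455). Tgfbr1, the kinase that phosphorylates Smad2 and Smad3, had medians between 46.6 RPKM (IGF1) and 62.2 RPKM (glargine), with vehicle tumors from 27.4 to 148. Its differences from vehicle were between -0.22 and 0.19 and each had a 95% interval that included 0, as they did without the 6 tumors (-0.39 to 0.08). Over 10 other alternatives, IGF1 against vehicle ran from -0.53 to -0.22 (smallest unadjusted p in limma 0.0387, smallest adjusted p 0.850).

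The response genes showed no call either. Tgfbi medians were 135.2 RPKM in vehicle, 105.2 with insulin, 123 with glargine, 138 with X10 and 114 with IGF1, and the lowest tumors belonged to vehicle (21.1 RPKM in Untreated_161) and X10 (48.1 in X10_111), both of the high epithelial set. Skil, which encodes the Smad corepressor SnoN and is itself induced by the pathway, had medians from 27.0 RPKM (glargine) to 31.7 RPKM (insulin). With IGF1 its spread was wider, from 11.4 to 39.7 RPKM, than with X10, from 22.0 to 37.7 RPKM. Inhba had medians of 32.9 RPKM in vehicle, 30.9 with insulin, 26.1 with glargine, 23.1 with X10 and 25.0 with IGF1, and single tumors far above these, 188 RPKM in Untreated_187, 137 in X10_100 and 159.6 in IGF1_160. Its standard errors of 0.46 on the log2 scale mean that only large differences could have passed.

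Counted over all 9 members and with all 50 tumors, none passed an adjusted p of 0.05 in any of 12 comparisons, with limma on log2 RPKM or with limma voom on the recovered reads. Over all tested genes, limma called 0% with insulin, 0% with glargine, 0.0657% with X10 and 0.00598% with IGF1, each against vehicle, and 0.155% for X10 and IGF1 against the other 3 groups. For any difference among the 5 groups it called 0.102%. The shares with voom were 0.0299% for X10 against vehicle, 0.00598% for IGF1, 0.126% for X10 and IGF1 against the rest, 0.221% for X10 against glargine, 0.0658% for X10 against insulin and 0% elsewhere. At an unadjusted p of 0.05, the members numbered 1 of 9 for insulin (Tgfb2), 1 for glargine (Tgfbr3), 0 for X10, 2 for IGF1 (Tgfb2 and Tgfb3), 1 for X10 and IGF1 against the rest (Tgfb3) and 1 across the 5 groups (Tgfb3), where 11.1%, 6.23%, 11%, 8.84%, 10.5% and 13.1% of all genes did so. With the 6 tumors of high epithelial markers left out, these counts were 1 for insulin (Tgfb2), 0 for glargine, 4 for X10, 4 for IGF1, 4 for X10 and IGF1 against the rest and 3 across the 5 groups, where 6.17%, 4.54%, 8.93%, 8.26%, 14.1% and 11.9% of all genes did so. The 4 members were Tgfb1, which was higher, and Tgfb2, Tgfb3 and Tgfbr2, which were lower, and the X10 and IGF1 comparisons share the 6 vehicle tumors that were left. Of these, Tgfb3 for X10 and IGF1 against the rest alone passed the adjustment over all genes. With all tumors, the medians of the 9 differences from vehicle were 0.09 (insulin), 0.02 (glargine), 0.0044 (X10) and -0.22 (IGF1), where those of all tested genes were 0.03, 0.02, -0.03 and 0.02. Without the 6 tumors the member medians were -0.18 (insulin), -0.17 (glargine), -0.11 (X10) and -0.39 (IGF1). Those of all tested genes were then 0.0006, -0.01, -0.07 and -0.01.

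**Figure D3:**
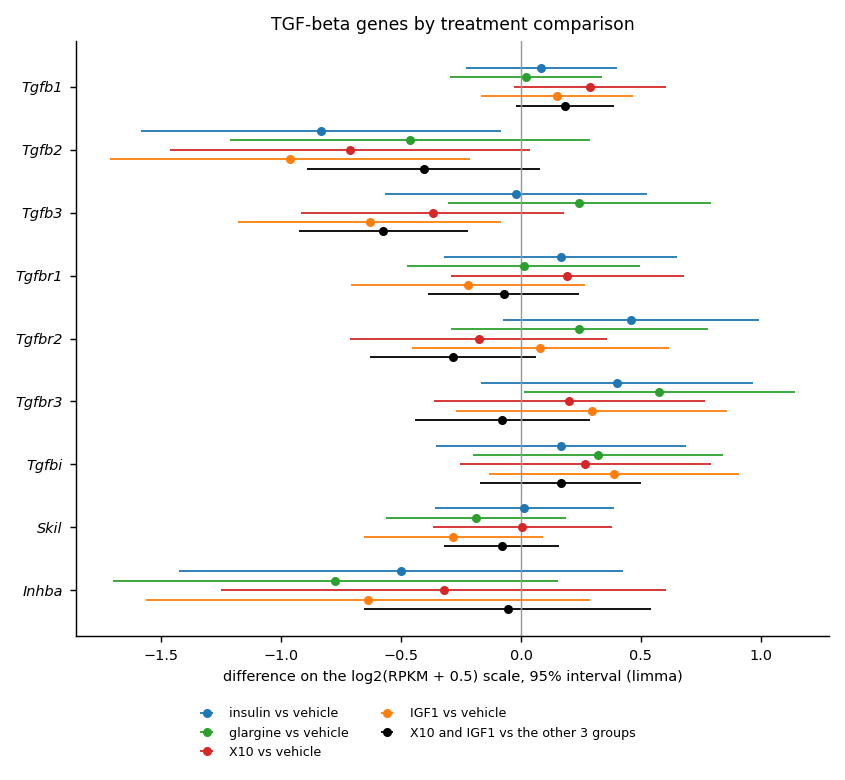
Differences on the log2(RPKM + 0.5) scale with their 95% intervals from limma for the 9 genes (rows) in 5 comparisons (colours), 10 tumors per group. Most intervals included 0, and the black interval of Tgfb3, for X10 and IGF1 against the other 3 groups, ran from -0.93 to -0.22.

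The 4 injected ligands were also compared with each other, 6 pairs for each of the 9 members, with p adjusted over all tested genes of a pair. No member passed, where 0% (IGF1 against glargine, IGF1 against X10, glargine against insulin), 0.00598% (IGF1 against insulin), 0.102% (X10 against insulin) and 1.78% (X10 against glargine) of all genes did. At an unadjusted p of 0.05 there was 1 member each in X10 against glargine (Tgfb3, beside 11.6% of all genes), X10 against insulin (Tgfbr2, 11.3%), IGF1 against glargine (Tgfb3, 6.98%) and IGF1 against insulin (Tgfb3, 7.3%), and 0 in IGF1 against X10 (11.7%) and glargine against insulin (3.96%). Tgfb3 was lower with IGF1 than with glargine by 0.87 on the log2 scale in the mean (95% interval -1.42 to -0.33, unadjusted p = 0.00237, adjusted p = 0.558). Against glargine, X10 gave -0.61 (95% interval -1.16 to -0.06, adjusted p = 0.335). For IGF1 against X10 the Tgfb3 difference was -0.26 with an interval from -0.81 to 0.29, which leaves room for a sizeable difference in either direction. It was 0.0073 (SE 0.26) without the 6 tumors of high epithelial markers and -0.07 (SE 0.24) with the level of chromosome 12 as a covariate, both added after seeing the data.

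The rest of the pathway was followed with 6 lists of 53 genes in all, of which 50 were expressed enough to be tested. No list gene passed in any of the 12 comparisons with limma. Against vehicle, IGF1 had the most genes at an unadjusted p of 0.05, 2 higher and 10 lower, or 24% of the 50, beside 8.84% of all tested genes. Their median difference was -0.14 where that of all genes was 0.02. For X10 against vehicle 3 genes were lower and none higher, or 6% of the 50, beside 11% of all tested genes. Of the 6 tumors of high epithelial markers, 4 were vehicle and 0 were IGF1 tumors, and the fibroblast and mesenchyme markers had a median of 8435 summed RPKM with IGF1 against 14194 in vehicle. Col1a1, Col1a2, Col3a1 and Dcn belong both to these markers and to the 6 lists, so list counts and markers overlap. The part of these markers in the IGF1 difference was not tested. With those tumors left out, IGF1 against vehicle had 2 genes higher and 8 lower, or 20% beside 8.26% of all genes, with a median of -0.16. X10 then had 1 higher and 9 lower, or 20% beside 8.93%. Col1a1, Col1a2 and Col3a1 were among the counted genes in both comparisons. Of the 5 Smad genes, the inhibitory Smad6, which blocks receptor signaling, had the smallest p across the groups (p = 0.0171, adjusted p = 0.298), with differences from vehicle of -0.90 with insulin, -0.55 with glargine, -0.95 with X10 and -0.82 with IGF1. Smad7, the other inhibitory Smad, gave -0.39 with IGF1 (SE 0.18), and Smad2 gave -0.07. In the list of 11 genes of the latent complex and its activation, Lrrc32, which anchors latent ligand on the cell surface, gave -0.79 with IGF1 (SE 0.25) and Nrros, which does so on myeloid cells, 0.68 (SE 0.24), while Itgb6, an integrin chain that releases ligand, gave -0.64 (SE 0.32).

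Among 10 inhibitors and corepressors, Fst, whose product binds activin, gave 0.17 with X10 and -0.69 with IGF1, and the ubiquitin ligases Smurf1 and Smurf2 gave -0.31 and -0.48 with IGF1. Of the 14 induced targets, Bhlhe40 gave -0.52, Ctgf, a matricellular growth factor gene, -0.99 (SE 0.39) and the collagen gene Col1a1 -0.72 (SE 0.42) with IGF1 against vehicle. The list median of this group was -0.28. With the 6 tumors of high epithelial markers left out, Bhlhe40 gave -0.12, Ctgf -0.59 (SE 0.40), Col1a1 -1.19 (SE 0.45) and Smad7 -0.09, while Itgb6 gave -0.16, so these values depended on the tumors included. Fst then gave -0.34 (SE 0.41) and Smurf1 -0.0065 (SE 0.13), whereas Smurf2 gave -0.52 (SE 0.21). Other ligands (Gdf15, Inha and Inhbb, 4 of 6 tested) and other receptors (Acvr1b, Eng and Acvrl1, 6 of 7 tested) had no gene at an unadjusted p of 0.05 for X10 or IGF1 against vehicle with all tumors, while without the 6 tumors Eng and Inha reached it with X10 and Acvr1 with IGF1 (-0.37, p = 0.0437, adjusted p = 0.598).

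Some members varied together from tumor to tumor. Of 36 pairs, 5 correlated at an adjusted p of 0.05 over 50 tumors. Tgfb1 ran opposite to Tgfbr3 (r = -0.676, rho = -0.600, permutation p = 1e-05, adjusted p = 0.00018) and to Tgfbr2 (r = -0.510, rho = -0.437, adjusted p = 0.00132). With all tumors, the first relation was -0.730 with values centred within groups and had the same sign in all 5 groups, from -0.861 with insulin to -0.377 with X10. Without the 6 tumors of high epithelial markers its sign turned within X10, to 0.158, while it was -0.502 in vehicle and -0.566 over all groups. The second was -0.508 when centred and ranged from -0.689 in vehicle to -0.0869 with insulin. Leaving out the tumors farthest in Tgfb1, X10_105 and Untreated_189, gave -0.628 and -0.440. The receptors Tgfbr2 and Tgfbr3 correlated at r = 0.513 (adjusted p = 0.00216), although rho was 0.338 with an adjusted p of 0.103. Tgfbr1 and Skil correlated at r = 0.623 (rho = 0.527, adjusted p = 0.00018), from 0.168 with insulin to 0.838 with IGF1. Tgfb2 and Tgfb3 gave the weakest of the 5, r = 0.385 (adjusted p = 0.0443) with rho = 0.373 (adjusted p = 0.0749). Without the 6 tumors of high epithelial markers, 4 of these pairs passed, and Tgfbr2 with Tgfbr3 had r = 0.376 (adjusted p = 0.0644). With values centred within groups, the 3 positive pairs had r of 0.499 (Tgfbr2 and Tgfbr3), 0.603 (Tgfbr1 and Skil) and 0.340 (Tgfb2 and Tgfb3). For both genes of each pair this was below the 99th percentile of r over all other genes. How many of all gene pairs would pass was not tested.

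**Figure D4:**
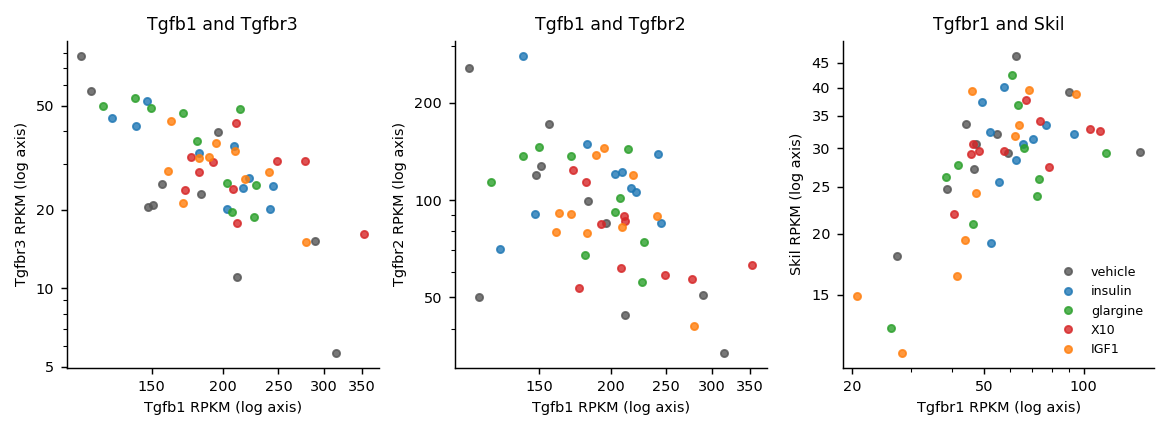
RPKM of 3 gene pairs in 50 tumors, on log axes, coloured by treatment; each point is 1 tumor. Tumors high in Tgfb1 were low in Tgfbr3 (r = -0.676) and Tgfbr2 (r = -0.510), and tumors high in Tgfbr1 were high in Skil (r = 0.623).

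Marker scores, the mean z-score of each marker list, moved with some members. Of 54 relations, 6 passed, and the share of all tested genes that would pass with these scores was not computed. Tgfbr2 was lower where epithelial markers were high (r = -0.538, rho = -0.412, adjusted p = 0.00252) and higher with leukocyte (r = 0.531, rho = 0.565, adjusted p = 0.00252) and fibroblast markers (r = 0.397, adjusted p = 0.0436). Tgfbi was higher with leukocyte markers (r = 0.508, rho = 0.359, adjusted p = 0.00252) and Inhba lower (r = -0.417, rho = -0.332, adjusted p = 0.0348). Tgfb1 was higher with epithelial markers (r = 0.393, adjusted p = 0.0436), a relation that rested on Untreated_174 and X10_105, without which r was 0.177. Within groups the signs were not uniform: epithelium and Tgfbr2 ran from -0.864 in vehicle to 0.0227 with IGF1. By rank, leukocytes with Tgfbr2 alone passed (adjusted p = 0.00162). Without the 6 tumors of high epithelial markers only fibroblast markers with Tgfb2 passed (r = 0.504, adjusted p = 0.0329). Leukocyte markers then gave r = 0.439 with Tgfbr2 and -0.437 with Inhba (adjusted p = 0.0522 for both) and 0.372 with Tgfbi (adjusted p = 0.113), sizes near those with all tumors for Inhba and smaller for the others. Epithelial markers fell to r = -0.213 with Tgfbr2 and to 0.116 with Tgfb1, and fibroblast markers to 0.186 with Tgfbr2. The Tgfb1 share of the ligands correlated with the fibroblast score at r = -0.357 (rho = -0.374, permutation p = 0.0108, adjusted p = 0.0649 over 6 scores), which passed by rank alone (adjusted p = 0.0449), and within groups from -0.772 with IGF1 to 0.239 with glargine. The fibroblast and mesenchyme markers themselves had lower medians with X10 and IGF1 (9657 and 8435 summed RPKM) than with vehicle, insulin and glargine (14194, 15864 and 11382), over wide ranges. Tgfb3 correlated with their score at r = 0.330 (rho = 0.265, adjusted p = 0.114), from -0.393 with X10 to 0.877 with IGF1. This score was not among the covariates of any fit, and its part in the differences of Tgfb3 and of the ligand share was not tested. Library size passed with no member (smallest adjusted p = 0.101, for Tgfb2).

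The genes most like each member were taken as the 3 with the highest r over 50 tumors, values centred within groups. For Tgfb1 they were Zc3h12a (r = 0.796), B4galnt1 (0.793) and Msrb1 (0.741), for Tgfb2 Pappa (0.657), Pdgfrb (0.647) and Fzd1 (0.637), and for Tgfb3 Col8a2 (0.690), Ttll5 (0.676) and Scara3 (0.638). Tgfbr1 was nearest to Atp2c1 (0.848), Itgav (0.793) and Cpeb4 (0.778), Tgfbr2 to Snx19 (0.863), Kdelc2 (0.863) and Vwa5a (0.839), and Tgfbr3 to Tmem260 (0.728), Lcorl (0.716) and Pmp22 (0.697). Tgfbi was nearest to Sirpa (0.692), Trim35 (0.650) and Myo1f (0.647), Skil to Trim33 (0.862), Acbd5 (0.855) and Usp33 (0.850), and Inhba to Nfil3 (0.728), Mmp10 (0.710) and Ppme1 (0.684). Pdgfrb marks fibroblasts, and Itgav is the integrin chain that releases latent ligand. The 99th percentile of r over the 16732 other genes lay between 0.421 (Tgfb2) and 0.742 (Skil).

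Many genes nearest to a member in expression lay on its own chromosome, a pattern that was noticed in these data and then measured. For Tgfb3, 43 of the 100 nearest protein-coding genes were on chromosome 12, which holds 3.26% of those tested. On chromosome 9 lay 46 of the 100 nearest to Tgfbr2, against 5.64% of those tested. For Skil 29 of 100 were on chromosome 3 (4.96%) and for Tgfb2 20 of 100 on chromosome 1 (5.88%), whereas Tgfbr1 had 4 on chromosome 4 (6.26%) and Tgfbr3 9 on chromosome 5 (6.25%). The mean level of a tumor's other genes on that chromosome describes the same pattern in the same tumors and is no separate test of it. Its correlation was r = 0.423 with Tgfb3 (rho = 0.454), 0.563 with Tgfbr2 (rho = 0.551), 0.469 with Skil (rho = 0.465) and 0.422 with Tgfb2 (rho = 0.470). Leaving out the tumors with the farthest chromosome levels gave 0.350, 0.558, 0.390 and 0.340. Within groups the relation was uneven, from 0.0688 with insulin to 0.765 in vehicle for Tgfb3 and from -0.0499 with glargine to 0.859 in vehicle for Tgfbr2. Among the 20 chromosomes, chromosome 12 ranked first for Tgfb3, and chromosome 9 came second for Tgfbr2, after X (r = 0.718). Chromosome 1 came before the own chromosome of Skil (r = 0.490), and chromosome 16 before that of Tgfb2 (r = 0.489).

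Distance along the chromosome made little difference for Tgfb3. Genes within 20 Mb had a median r of 0.316 with it, and those 60 to 80 Mb away 0.289, against 0.0276 for genes of other chromosomes. The chromosome 12 level itself was tested only between X10 and IGF1 tumors and the others, and did not pass. The levels were 0.03 ± 0.16 (SD, n = 20) and -0.02 ± 0.18 (n = 30) on the log2 scale, a difference of 0.06 (permutation p = 0.252, adjusted p = 0.969). With this level as a covariate, added after seeing the data, the difference of Tgfb3 between X10 and IGF1 and the other 3 groups was -0.68 and passed (adjusted p = 0.0420, in a fit that called 0.203% of all genes).

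**Figure D5:**
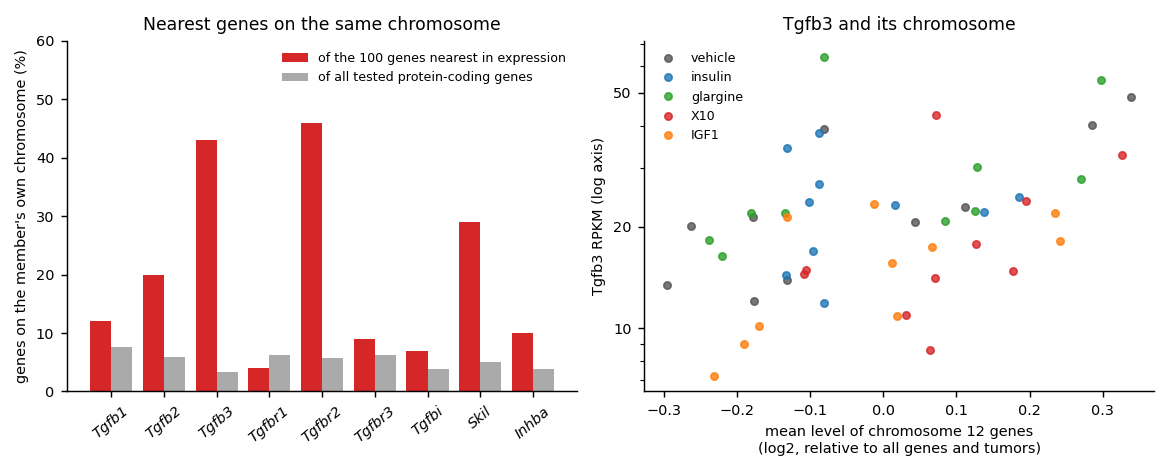
Left, share of genes on a member's own chromosome among the 100 genes nearest to it in expression (red) and among all tested protein-coding genes (grey), in percent. Right, Tgfb3 RPKM (log axis) against the mean log2 level of chromosome 12 genes in 50 tumors, coloured by treatment; 43% of the genes nearest to Tgfb3 were on chromosome 12 and r was 0.423.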

How the data were processed

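Poly-A selected RNA of 50 tumors was sequenced on the Ion Proton. The authors aligned reads to GRCm38 with Tophat2 (2.0.10) and Bowtie2, counted them per gene with HTSeq-Count (0.6.1, default options; whether the library kit kept strand is not given in the sources used here) and deposited RPKM values, not log transformed. The deposited RPKM steps show reads scaled to 100 M and divided by a gene length. Reads and library sizes were recovered from these steps, with at least 98.4% of values whole in each tumor. Groups followed the sample titles. Differences were tested with limma (3.58.1, R 4.3.3, trend) on log2(RPKM + 0.5), keeping genes whose mean was at least 0.5 RPKM, with all 5 groups in one fit, adjusted by Benjamini-Hochberg over 16733 genes. The log2 scale understates changes of low genes. limma voom with trimmed-mean (TMM) factors on the recovered reads was an alternative, and the limma fit was checked on simulated data. Correlations and shares were tested by two-sided permutation (100000 resamples, 20000 when a tumor was left out). Each tumor came from a mouse of its own number. Sample identifiers run in order of group, and the order in which libraries were made or sequenced is not given. Any effect of that order could therefore not be told apart from treatment. Named genes were the 9 members, the 3 list genes per list of smallest p across the groups, the 3 nearest genes per member and cell type markers. Acvr1 was named in addition, for its unadjusted p without the tumors of high epithelial markers. Members and lists were chosen with earlier results of these data known.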

Additional observations from a re-analysis of the deposited data

Results flagged for a closer look

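Of 50 sets of 10 values (9 genes and the Tgfb1 share, in 5 groups), 1 held a tumor that lay far from the rest by Dixon's test, where chance gives about 1 in 20. In the IGF1 group, tumor IGF1_160 had 40.9 RPKM of Tgfbr2, while the next lowest, IGF1_135, had 79.2 RPKM, a gap of 0.523 of the range on the log2 scale.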

How the results depend on the processing

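No paired analysis was possible because the mouse numbers of the titles are not shared between groups. No member was called under another pseudocount, filter, scaling, marker or library size covariates, the compared groups alone or voom, nor when each of 50 tumors was left out. Of the alternatives added after seeing the data, the level of the own chromosome as a covariate and the fit without the 6 tumors of high epithelial markers each gave 1 called member for X10 and IGF1 against the other 3 groups, Tgfb3 (-0.68 and -0.81). The share of Tgfb1 for insulin against vehicle passed without those 6 tumors (7.24 points). For glargine it turned to -0.025 as a log2 ratio and -0.11 as a difference in medians. Leaving out 1 tumor gave -0.867 to 1.79 points for glargine, 5.51 to 8.17 for X10 and 5.78 to 8.44 for IGF1. By Spearman's rho, 3 member pairs and 1 marker relation passed, and 1 marker relation without the 6 tumors.

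Of 45 member differences, 16 changed sign under some alternative, none of them called, and the cause was not tested. Without the 6 tumors of high epithelial markers, insulin against vehicle gave -0.18 for Tgfbr2, -0.33 for Tgfbi and -0.010 for Skil, and glargine gave -0.075 for Tgfb3, -0.15 for Tgfbr1, -0.39 for Tgfbr2 and -0.17 for Tgfbi. In the same fit X10 gave -0.073 for Tgfbr3, -0.11 for Tgfbi and -0.051 for Skil, and IGF1 gave -0.55 for Tgfbr2, -0.087 for Tgfbr3 and -0.11 for Tgfbi. The marker scores used as covariates were all but that of fibroblast and mesenchyme. With these scores, insulin gave -0.13 for Tgfbr1, -0.16 for Tgfbi and -0.18 for Skil, glargine -0.10 for Tgfbr1 and -0.14 for Tgfbr2, X10 -0.065 for Skil and IGF1 -0.38 for Tgfbr2. With library size, insulin gave 0.10 for Tgfb3 and -0.012 for Skil, and X10 -0.034 for Skil. With voom, insulin gave -0.021 for Skil, and glargine -0.020 for Tgfb1 and -0.027 for Tgfbr1. With the own chromosome as a covariate, Skil was at -0.26 with insulin and -0.11 with X10, Tgfb1 at -0.0027 with glargine and Tgfbr2 at -0.034 with IGF1. Without a change of sign, Skil in that limma fit was at -0.53 with IGF1 (SE 0.16, unadjusted p = 0.00217, adjusted p = 0.703). It ran from -0.42 to -0.28 with IGF1 over 10 other alternatives. With 208 to 65182 reads per member and tumor, counting error was smaller than the spread between tumors.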
